A study of Homo sapiens with 8 samples.

Results

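The clustered histone genes were read across 2 human uveal melanoma cell lines as APOBEC3B (A3B), a cytidine deaminase that edits DNA, was lowered or raised. They were taken by name, as every symbol of the form H1-1 to H1-6, H2AC, H2BC, H3C or H4C with a number, and 66 of the 19952 symbols in the files matched, namely 6 H1, 16 H2A, 17 H2B, 13 H3 and 14 H4 genes. On GRCh38, 55 of them lie between 25723397 and 27893891 on chromosome 6 and 11 lie between 149782689 and 149887965 on chromosome 1. RNA-seq was available from 8 libraries, 2 in each of 4 groups. The groups in 92.1 cells were shCtrl, which the methods describe as an empty vector, and shA3B, a short hairpin RNA against A3B. The groups in MEL290 cells were NC, given in the labels only as the control, and A3B OE, which carries an A3B expression vector. The hairpin and A3B vectors hold a puromycin resistance gene, both lines grew in RPMI1640 medium with serum, and the sources used here do not say whether replicates were separate cultures, so the spread between libraries may be technical only.

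Core histones H2A, H2B, H3 and H4 form the protein octamer around which DNA is wound, and linker histone H1 sits where DNA enters and leaves it. The clustered genes are the replication-dependent ones: cells transcribe them mainly in S phase, when new DNA has to be packaged, and their mRNAs usually end in a stem-loop bound by SLBP in place of a poly(A) tail. Histones made throughout the cell cycle, such as H3.3 or H2A.Z, come from single genes elsewhere whose mRNAs are polyadenylated. A library made from polyadenylated RNA therefore holds only part of the clustered histone mRNA, and the sources used here name the RNA differently (total RNA in the labels, mRNA in the methods) without stating a poly(A) selection.

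The 3′ stem-loop is shown first, since it is the feature that sets these mRNAs apart. In annotated transcripts of 61 of the 66 genes a 16-base stem-loop was found, made of a 6-base stem that starts with GG, a 4-base loop that starts with TTT, and the reverse complement of the stem. The loop read TTTC in 47 genes, TTTA in 9 and TTTT in 5. The stem had 2 spellings, and they divided by class: all 13 H4 genes with a stem-loop had 1 spelling and all 48 genes of the other classes had the other. Capitals mark the loop in the examples, which are sense-strand sequence (T for U).
H2AC18, loop TTTC: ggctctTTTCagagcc
H2BC12, loop TTTA: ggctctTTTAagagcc
H2AC20, loop TTTT: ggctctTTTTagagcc
H4C8, loop TTTC: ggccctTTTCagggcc
H4C14, loop TTTT: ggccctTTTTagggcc
The loop of H2BC12 ends in another base than that of H2AC18, and the 4 other genes that share it in the H2B class are H2BC4, H2BC5, H2BC7 and H2BC11. The representative transcript was a single exon in all 66 genes, with a median length of 488 bases, and in 46 genes it ended within 18 bases of a TTTC stem-loop. H2BC21 was the exception among those with that loop, with 1729 bases beyond it. In 13 genes at least 1 transcript was spliced, among them H2AC6, H2BC4, H2BC5, H3C6, H4C8 and H4C14.

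The promoters of the most abundant genes follow, each as 250 bases before and 50 after the RefSeq start on GRCh38.p14, with capitals on the motifs searched. These were CCAAT on both strands, which binds the factor NF-Y, the TATA box as TATAA on the sense strand, the octamer ATTTGCAT on both strands, which binds POU2F1 and is typical of H2B promoters, and the H1 box AAACACA on both strands.
H2AC18, chr1:149842701-149843000, minus strand: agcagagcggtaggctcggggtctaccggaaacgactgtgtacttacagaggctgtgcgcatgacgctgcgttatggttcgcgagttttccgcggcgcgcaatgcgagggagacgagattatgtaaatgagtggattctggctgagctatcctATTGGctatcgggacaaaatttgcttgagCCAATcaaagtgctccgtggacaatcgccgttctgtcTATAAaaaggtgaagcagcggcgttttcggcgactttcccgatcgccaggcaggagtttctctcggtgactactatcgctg
H2BC12, chr6:27146809-27147108, minus strand: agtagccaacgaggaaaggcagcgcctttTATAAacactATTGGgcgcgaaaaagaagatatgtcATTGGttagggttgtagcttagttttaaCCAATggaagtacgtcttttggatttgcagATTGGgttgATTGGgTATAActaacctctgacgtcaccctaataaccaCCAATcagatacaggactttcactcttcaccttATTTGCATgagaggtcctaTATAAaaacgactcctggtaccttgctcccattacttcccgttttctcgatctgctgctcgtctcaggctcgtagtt
H2BC5, chr6:26157871-26158170, plus strand: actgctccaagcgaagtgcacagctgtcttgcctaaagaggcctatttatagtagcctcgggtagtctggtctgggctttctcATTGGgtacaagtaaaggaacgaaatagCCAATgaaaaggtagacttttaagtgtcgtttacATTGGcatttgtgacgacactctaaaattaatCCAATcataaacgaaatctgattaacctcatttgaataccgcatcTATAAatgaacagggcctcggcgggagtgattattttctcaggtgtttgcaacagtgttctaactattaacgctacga
H2AC6, chr6:26123922-26124221, plus strand: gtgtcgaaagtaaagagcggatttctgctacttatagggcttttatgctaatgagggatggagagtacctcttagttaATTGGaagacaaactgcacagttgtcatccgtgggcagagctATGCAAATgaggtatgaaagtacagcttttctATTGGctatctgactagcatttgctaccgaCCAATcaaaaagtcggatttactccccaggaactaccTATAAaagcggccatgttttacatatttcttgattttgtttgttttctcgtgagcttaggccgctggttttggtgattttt
H1-2, chr6:26056421-26056720, minus strand: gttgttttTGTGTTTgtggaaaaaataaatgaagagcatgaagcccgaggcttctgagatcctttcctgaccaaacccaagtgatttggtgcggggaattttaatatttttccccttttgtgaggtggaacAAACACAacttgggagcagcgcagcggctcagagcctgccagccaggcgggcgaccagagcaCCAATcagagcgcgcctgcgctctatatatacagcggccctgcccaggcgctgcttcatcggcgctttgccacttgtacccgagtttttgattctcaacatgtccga
H2BC12 held 6 CCAAT matches, 3 TATAA and 1 octamer, whereas H2BC5 held 4 CCAAT, 1 TATAA and no octamer. H2AC6 held 3 CCAAT and 1 octamer on the minus strand, H2AC18 held 2 CCAAT and 1 TATAA, and H1-2 held 2 H1 boxes and 1 CCAAT. Promoter windows were listed for 61 of the 66 genes. CCAAT was found in 85.2% of them against 35.7% of 27305 promoters of all genes, TATAA in 82.0% against 15.5%, the octamer in 42.6% against 1.80%, and the H1 box in 14.8% against 5.76%. By class, the octamer was in 14 of 17 H2B, 11 of 15 H2A, 1 of 11 H3, 0 of 6 H1 and 0 of 12 H4 promoters. H2A and H2B neighbours that lie head to head have overlapping windows. A match searched on both strands can therefore count for both genes, as the octamer of H2AC6 and H2BC4 did. The H1 box was in 6 of 6 H1 promoters, and CCAAT was in 3 of 12 H4 promoters but in every H1, H2A, H2B and H3 promoter listed. The windows of H2AC18 and H2AC19 shared an unbroken run of 299 bases.

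A3B itself followed the labels. A3B stood at 35.9 and 32.3 FPKM (a read density scaled to transcript length and to library depth) in shCtrl and at 1.98 and 2.37 in shA3B, and at 2.67 and 2.19 in NC and 28.4 and 27.5 in A3B OE. Depth was known only roughly, as 17500000 to 32100000 fragments per library estimated from the smallest values, at which 1 fragment of a 500-base transcript is worth 0.104 to 0.190 FPKM. The 7 melanocyte markers tried summed to 7114 to 8711 FPKM in the 92.1 libraries and to 15.2 to 20.7 in the MEL290 libraries, where SOX10, MLANA, TYR, TYRP1 and DCT stayed under 1 FPKM in every library. The fibroblast markers summed to 5.56 to 7.87 FPKM in 92.1 and 43.97 to 60.7 in MEL290, through COL1A1 and PDGFRB, while DCN, COL1A2 and LUM were under 1. PTPRC, a leukocyte marker, was under 1 throughout. MEL290, labelled as uveal melanoma, thus lacked 5 of the 7 melanocyte markers, and their part in its histone levels was not tested.

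Most clustered histone genes were barely detected. Of the 66 genes, 12 were listed at 0 in all 8 libraries, 39 stayed under 1 FPKM in all of them and 20 reached 1 FPKM in at least 2 libraries. A value of 0 in these files may be a failed estimate. Between 23 and 31 of the genes were listed at 0 in any 1 library. By class, 6 of 17 H2B, 5 of 16 H2A, 5 of 14 H4, 3 of 13 H3 and 1 of 6 H1 genes reached 1 FPKM in 2 libraries. The 66 genes together took 0.00951% to 0.0116% of the summed FPKM in the 92.1 libraries, 0.0485% and 0.0541% in NC and 0.0219% and 0.0242% in A3B OE.

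The summed level of the 66 genes came mostly from 3 of them. The sum was 77.5 and 64.9 FPKM in shCtrl, 64.5 and 61.0 in shA3B, 337 and 302 in NC and 155 and 133 in A3B OE. Both NC libraries were above both A3B OE libraries and all 92.1 libraries, while the 92.1 groups lay close together. These are bulk cultures, so fewer cells that express a gene and less RNA per cell cannot be told apart. The median log2 fold change of genes typical of S phase was 0.62 in A3B OE against NC and 1.23 in shCtrl against NC. In A3B OE 29 of 42 were called higher and 0 lower, where 10.3% and 7.49% of all genes tested were. In shCtrl 34 of 43 were called higher and 1 lower, where 39.3% and 33.7% of all genes tested were. Their part in the histone sum was not tested. H2AC18, H2AC19 and H2BC12 made up 52.9% to 70.0% of the sum in every library. The mean was 71.2 ± 8.92 (SD, n = 2) FPKM in shCtrl, 62.7 ± 2.42 in shA3B, 320 ± 24.6 in NC and 144 ± 15.4 in A3B OE. NC was 2.22-fold above A3B OE, and with 2 libraries against 2 an exact permutation test cannot go below p = 0.33, so no test of the sum is given. Without H2BC12, the gene with the highest mean, NC remained 2.24-fold above A3B OE.

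**Figure D1:**
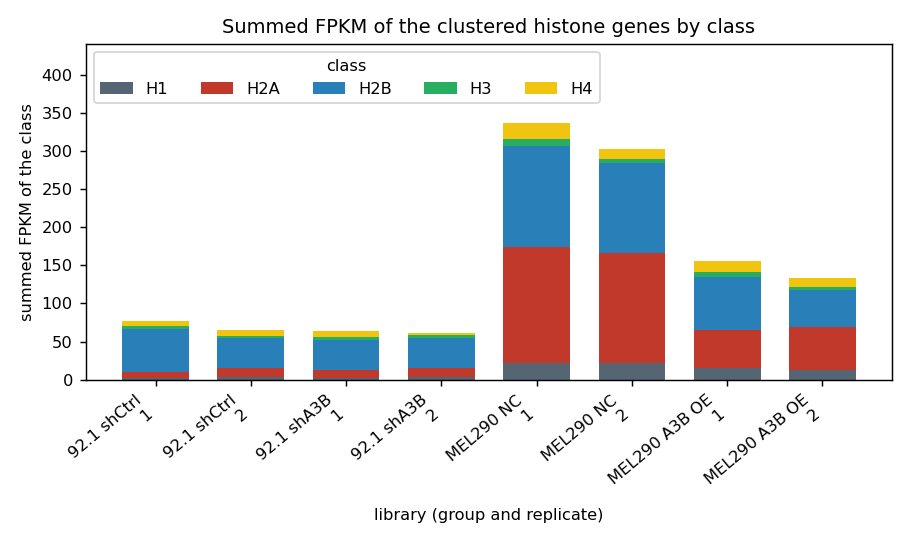
Stacked bars give the summed FPKM of each histone class (H1, H2A, H2B, H3, H4) in each of the 8 libraries. H2A and H2B fill most of every bar, and the NC bars (337 and 302) stand above the A3B OE bars (155 and 133) and all 92.1 bars.

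The classes contributed unequally. H2A genes summed to 148 ± 6.31 (SD, n = 2) FPKM in NC and 53.3 ± 5.40 in A3B OE, a 2.77-fold difference. H2B genes summed to 125 ± 9.92 FPKM in NC and 58.4 ± 15.4 in A3B OE, 2.14-fold apart. H1 genes stood at 22.5 ± 0.287 FPKM in NC and 14.1 ± 2.22 in A3B OE, and in both groups nearly all of this was H1-2. The H3 genes summed to only 6.63 ± 2.59 FPKM in NC and 5.80 ± 2.08 in A3B OE, so those groups overlapped. The H4 genes summed to 17.7 ± 6.03 FPKM in NC and 12.6 ± 1.07 in A3B OE, and leaned on H4C8, whose NC libraries differed. In 92.1, where H2B was the main class with 47.6 ± 12.2 FPKM in shCtrl, the H2A sum was 9.80 ± 3.09. As a comparison chosen after its values were seen, H3-3A and H3-3B, which encode the replication-independent H3.3, summed to 784 to 1205 FPKM over the 8 libraries, where all 13 clustered H3 genes gave 3.08 to 8.47.

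The individual genes were then described by class, beginning with H2A. H2AC18 and H2AC19 encode the same kind of canonical H2A and are an inverted duplicate on chromosome 1 (149842218 to 149842750, minus strand, and 149851061 to 149851594, plus strand). H2AC18 stood at 54.3 and 55.3 FPKM in NC and 16.3 and 18.3 in A3B OE, and at 1.05 and 0.795 in shCtrl and 0.478 and 0.714 in shA3B. H2AC19 stood at 60.8 and 61.1 FPKM in NC and 17.9 and 20.2 in A3B OE, and at 1.00 and 0.759 in shCtrl and 0.569 and 0.682 in shA3B. Both were high only in MEL290, with NC far above A3B OE and no overlap between any MEL290 and any 92.1 library. Of all 150-base windows of their representative transcripts, 100% and 99.7% occurred in the other gene, so reads could not be told apart by sequence and the pair counts as a single measurement. Their summed FPKM was 116 ± 0.905 (SD, n = 2) in NC and 36.4 ± 3.08 in A3B OE.

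H2AC6 is the other abundant H2A gene. Its transcripts include 2 spliced forms, and 1 transcript ends over 100 bases beyond the stem-loop. Its exons also overlap those of another annotated gene on the same strand. It stood at 19.9 and 20.7 FPKM in NC, 13.3 and 12.8 in A3B OE, 0.565 and 0.437 in shCtrl and 1.36 and 0.572 in shA3B. Its NC values lay above its A3B OE values, and its shA3B libraries differed by 0.58 on the log2(FPKM + 1) scale, after H2BC12 the widest gap within a group among the genes that averaged at least 4 FPKM. H2AC20 was the H2A gene with the highest level in 92.1, at 2.47 and 6.36 FPKM in shCtrl and 4.15 and 6.62 in shA3B, but its NC libraries read 4.87 and 0. H2AC15 also split between NC libraries, with 8.81 and 0.679 FPKM. H2AC20 was tested in MEL290, with a log2 fold change of -0.33 ± 0.78 (SE) and an adjusted p of 0.808 by limma, and H2AC15 did not pass the filter there.

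Among H2B genes, H2BC12 was the most abundant of all 66. H2BC12 stood at 101 and 86.1 FPKM in NC, 52.3 and 34.5 in A3B OE, 52.2 and 34.2 in shCtrl and 33.1 and 37.1 in shA3B. It was the only clustered histone gene above 10 FPKM in 92.1, and the NC libraries were above all others. Its shCtrl libraries differed by 0.60 on the log2(FPKM + 1) scale, the widest such gap. H2BC5 stood at 13.4 and 10.9 FPKM in NC, 4.92 and 4.80 in A3B OE, 1.09 and 0.897 in shCtrl and 1.00 and 0.577 in shA3B. H2BC4 stood at 7.67 and 10.1 FPKM in NC, 5.21 and 2.94 in A3B OE, 0.718 and 0.0908 in shCtrl and 0.882 and 0.142 in shA3B. Both were highest in NC with no overlap with A3B OE. H2BC4 shares exons with HFE on the opposite strand, so without strand its reads cannot be told from those of HFE where they overlap. HFE averaged 13.96 ± 0.307 (SD, n = 2) FPKM in NC and 16.7 ± 0.180 in A3B OE and was listed at 0 in shCtrl. HFE was thus high in the same line as H2BC4 but not lower in A3B OE, and its part in the H2BC4 values was not tested. H2BC21, on chromosome 1, encodes an H2B whose annotated mRNA runs past the stem-loop. It stood at 2.64 and 2.76 FPKM in NC and 1.36 and 1.33 in A3B OE, and under 0.4 in each 92.1 library.

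Among the clustered linker histone genes, H1-2 was the most abundant in every library. H1-2 stood at 22.3 and 22.1 FPKM in NC, 15.5 and 12.2 in A3B OE, 2.53 and 3.31 in shCtrl and 1.73 and 2.36 in shA3B. H1-2 was lower in A3B OE than in NC, and lower again in 92.1. H1-4 reached 0.634 and 0.871 FPKM in shA3B and no more than 0.438 elsewhere, and H1-1, H1-3, H1-5 and H1-6 also stayed under 1 FPKM in all libraries.

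The H3 and H4 genes were low and variable. H3C6 stood at 4.21 and 2.28 FPKM in NC, 1.94 and 1.76 in A3B OE, 1.54 and 1.34 in shCtrl and 2.24 and 1.23 in shA3B. H3C10 ranged from 0.386 to 1.22 FPKM over the 8 libraries. These H3 levels correspond to few fragments. H3C14 and H3C15, an identical duplicate over 100% of the 150-base windows of H3C15, carried the same value in every library, from 0.1004 to 0.436 FPKM. H4C8 stood at 13.0 and 3.68 FPKM in NC, 2.76 and 2.59 in A3B OE, 2.55 and 0.489 in shCtrl and 3.03 and 0.491 in shA3B. The replicates of NC, shCtrl and shA3B lay far apart. H4C14 stood at 3.73 and 5.47 FPKM in NC, 3.91 and 4.05 in A3B OE, 0.498 and 0.0886 in shCtrl and 1.22 and 0.220 in shA3B, and all of its 150-base windows occurred in H4C15. H4C11 had the opposite order, with 2.84 and 2.33 FPKM in shCtrl, 1.93 and 0.740 in shA3B, 0.839 and 0.800 in NC and 3.004 and 0.942 in A3B OE. It shared 88.8% of its 150-base windows with H4C12.

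**Figure D2:**
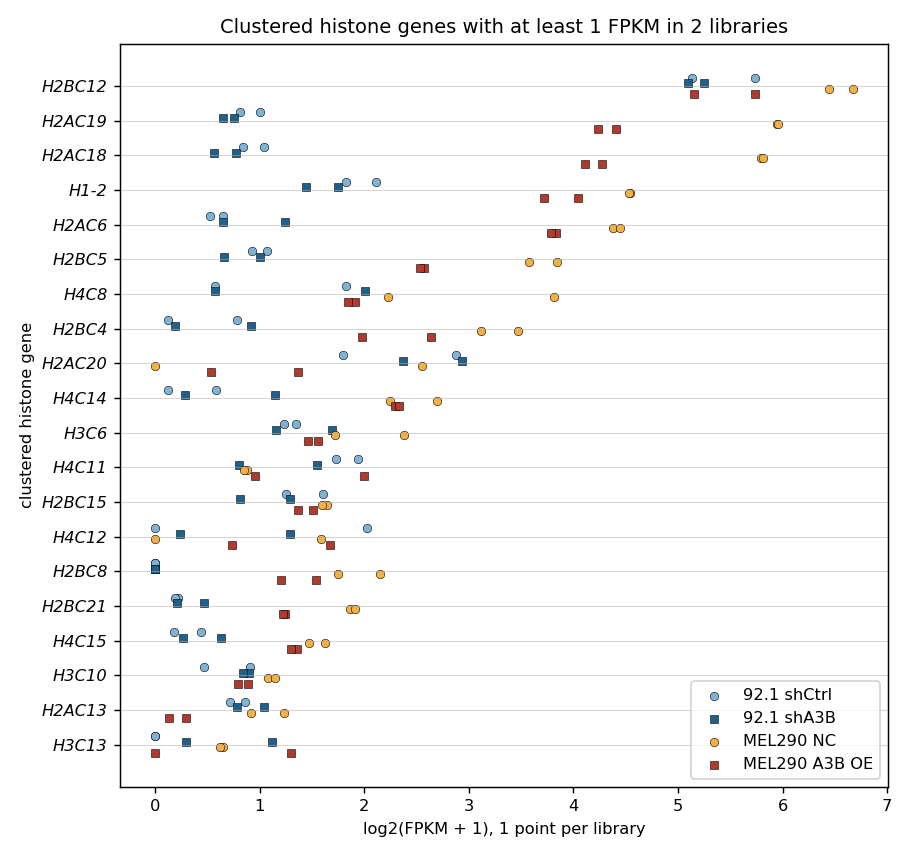
The horizontal axis gives log2(FPKM + 1), with 1 point for each of the 8 libraries, for the 20 clustered histone genes with at least 1 FPKM in 2 libraries. The NC points (circles) lie to the right of the A3B OE points (squares) for H2AC18, H2AC19, H1-2, H2AC6, H2BC5, H2BC4 and H2BC21, with the 92.1 points further left still, and H2BC12 is the one gene that is high in both lines.

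The levels were set against features of the genes, as descriptions. The 13 genes with a spliced transcript had a median mean level of 1.65 FPKM and 8 of them reached 1 FPKM in 2 libraries, against a median of 0.254 FPKM and 12 of 53 for the genes without. The most abundant genes, H2BC12, H2AC18 and H2AC19, nevertheless had only single-exon transcripts. The 11 genes on chromosome 1 had a median of 1.01 FPKM and the 55 on chromosome 6 a median of 0.188 FPKM. The 61 genes with a stem-loop had a median of 0.274 FPKM, and the 5 in which none was found had a median of 0.573 FPKM. Exons of 10 of the 66 genes overlapped those of another gene, and 12 shared at least 1 window of 150 bases with another clustered histone gene.

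H2A and H2B genes often lie head to head, which allows the levels of neighbours that share a promoter region to be compared. There were 11 such pairs, with 170 to 251 bases between starts. In 2 pairs both genes reached 1 FPKM in 2 libraries, in 4 pairs only 1 gene did and in 5 pairs neither did. H2BC12 averaged 93.6 FPKM in NC and 43.2 in shCtrl, while its neighbour H2AC12, 251 bases away, was listed at 0 in all 4 MEL290 libraries and averaged 0.655 in shCtrl. H2AC6 and H2BC4, 219 bases apart and with the octamer shown above between them, were both high in NC (20.3 and 8.89 FPKM) and both under 1 FPKM on average in the 92.1 groups. H2AC20 and H2BC21 averaged 2.44 and 2.70 FPKM in NC but 4.41 and 0.153 in shCtrl. Neighbours across a shared promoter region thus differed from near equal to over 50 FPKM apart.

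**Figure D3:**
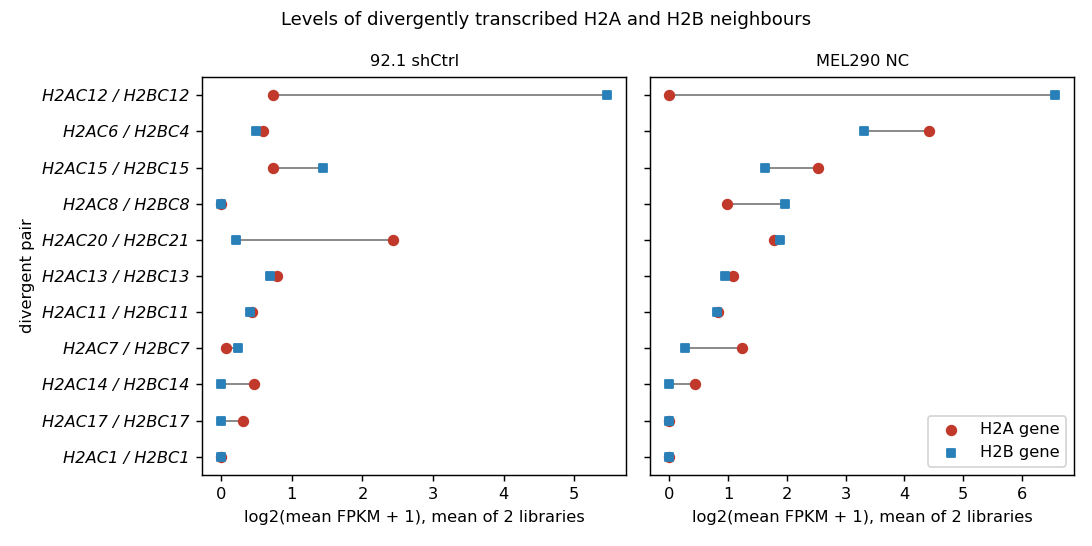
Each row is a divergent H2A and H2B pair, with the log2(mean FPKM + 1) of the H2A gene (circle) and the H2B gene (square) joined by a line, in shCtrl and in NC. The longest line in both panels belongs to H2AC12 and H2BC12, and in NC the pair H2AC6 and H2BC4 is high on both sides.

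The first comparison asked what lowering A3B in 92.1 did to these genes. No clustered histone gene was called changed in shA3B against shCtrl. Genes were tested with limma on log2(FPKM + 1) when at least 1 FPKM in 2 of the 4 libraries, which 9 of the 66 genes passed and 57 did not, and Benjamini-Hochberg adjusted p-values under 0.05 were called. The count was 0 of 9, where 0.00862% of all 11605 genes tested were called, namely A3B alone. At an unadjusted p under 0.05, 1 of the 9 genes and 336 of all genes passed. That gene was H4C11, at 2.84 and 2.33 FPKM in shCtrl and 1.93 and 0.740 in shA3B, with a log2 fold change of -0.66 ± 0.25 (SE) and an adjusted p of 0.999 by limma. The median log2 fold change of the 9 genes was -0.25, against a median of 0.00 for all genes tested. H2BC12 had a log2 fold change of -0.26 ± 0.19 and H1-2 of -0.37 ± 0.20, both with an adjusted p of 0.999 by limma. H2BC12 turned to 0.033 without shCtrl replicate 1.

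The second comparison asked what raising A3B in MEL290 did. H2AC18, H2AC19, H2AC6, H2BC12, H2BC5, H2BC4, H2BC21 and H1-2 were called lower in A3B OE. These were 3 H2A, 4 H2B and 1 H1 gene, and no clustered histone gene tested was called higher. Of the 66 genes, 17 passed the filter and 8 were called, all lower, where 7.49% of all 11611 genes tested were called lower and 10.3% higher. H2AC18 and H2AC19, a single measurement by their shared sequence, enter these counts as separate genes. Of the 17, 16 had a log2 fold change below 0 and 1 above, and 1 (H3C10) passed the filter only through NC. H2AC18 and H2AC19 fell 3.17-fold and 3.20-fold in mean FPKM, with log2 fold changes of -1.61 ± 0.09 (SE) and -1.63 ± 0.09, and an adjusted p of 0.0011 each by limma. H2BC5 fell 2.50-fold (log2 fold change -1.16 ± 0.14, adjusted p = 0.0050 by limma). H2BC12 fell 2.16-fold (log2 fold change -1.12 ± 0.19, adjusted p = 0.0143 by limma). H2BC4 fell 2.18-fold, with an adjusted p of 0.0411 by limma. H2BC21, H1-2 and H2AC6 fell 2.01-fold, 1.60-fold and 1.56-fold, with adjusted p-values of 0.0265, 0.0220 and 0.0113 by limma. In each of these 8 genes both A3B OE libraries were below both NC libraries, which follows largely from the call and is no added support. Each kept its direction in every alternative run. Without A3B OE replicate 2 the count was 4, namely H2AC18, H2AC19, H2BC12 and H2BC5.

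The other 9 genes tested in MEL290 were not called, and of these H2BC8 alone, at -0.58 ± 0.20, passed an unadjusted p under 0.05 (adjusted p = 0.107 by limma). H4C8 had a log2 fold change of -1.14 ± 0.47 and an adjusted p of 0.152 by limma, its NC libraries being 13.0 and 3.68 FPKM. H3C6 had a log2 fold change of -0.54 ± 0.24 with an adjusted p of 0.172, and H4C14 of -0.15 ± 0.18 with an adjusted p of 0.606, both by limma. No H3 or H4 gene was called of 2 and 4 tested. This rested on NC replicate 2: without it H4C8 and H3C6 were called lower, at -1.93 and -0.87 with adjusted p-values of 4.17e-07 and 0.0068 by limma, and without NC replicate 1 they stood at -0.35 and -0.20 and were not called. The gene with a value above 0 was H4C12, at 0.41 ± 0.55, named after its values were seen. The median log2 fold change of the 17 genes was -0.60 and that of all genes tested 0.00.

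**Figure D4:**
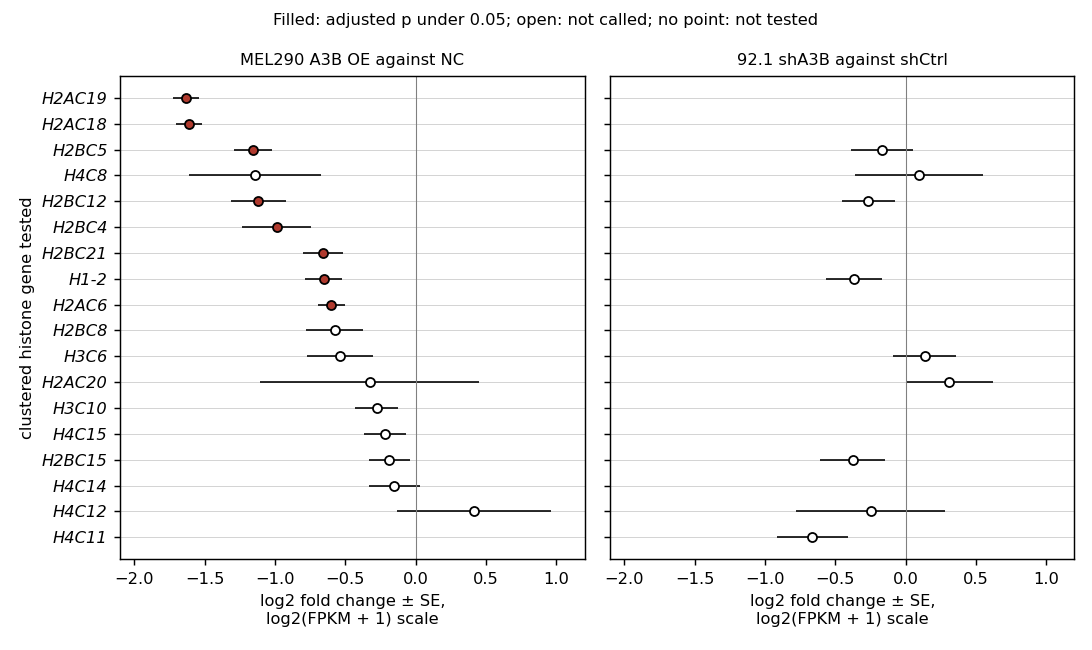
Points give the log2 fold change and bars its SE for each clustered histone gene tested, for A3B OE against NC in MEL290 (left) and shA3B against shCtrl in 92.1 (right), with filled points where the adjusted p was under 0.05. The 8 filled points are all left of 0 in MEL290 and none is filled in 92.1.

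The difference between the lines was tested in a fit over all 8 libraries. It was the log2 fold change of A3B OE over NC less that of shA3B over shCtrl. Of 20 genes that passed the filter over 8 libraries, H2AC19, H2AC18, H2AC13 and H2BC5 were called, all with a lower value in MEL290, where 1.35% of all 12697 genes tested were called lower. The difference was -1.42 ± 0.18 (SE) for H2AC19 and -1.34 ± 0.19 for H2AC18, with adjusted p-values of 0.0083 and 0.0116 by limma. It was -0.99 ± 0.22 for both H2BC5 and H2AC13, with adjusted p-values of 0.0491 and 0.0484 by limma. H2AC13 rested on low values, 0.893 and 1.35 FPKM in NC and 0.0948 and 0.227 in A3B OE. It reached 1 FPKM only in NC replicate 2 and in shA3B replicate 1, at 1.35 and 1.06 FPKM. It thus passed the filter only through groups in which a high value lowers the difference, so its call is a description. The genes with a fall in MEL290 but no call here were H1-2 (-0.29 ± 0.24), H2BC12 (-0.85 ± 0.33), H2BC4 (-1.09 ± 0.46), H2AC6 (-0.96 ± 0.26) and H2BC21 (-0.79 ± 0.18), with adjusted p-values of 0.562, 0.197, 0.236, 0.0859 and 0.0505 by limma. The count was 2 without either shCtrl library, shA3B replicate 1 or NC replicate 1, 1 when NC replicate 2 or A3B OE replicate 2 was left out, and 0 with A3B OE replicate 1 left out. A3B changed in opposite directions in the 2 lines, so the same response to A3B in both would also give a difference. H2AC18 and H2AC19 were near 1 FPKM or below in all 92.1 libraries.

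The control groups of the lines were compared as shCtrl against NC, in which line, vector and control differ together and cannot be told apart. Clustered histone genes were mostly lower in 92.1. Of 18 genes that passed the filter, 13 were called lower in 92.1, where 33.7% of all 12352 genes tested were, and 1 was called higher, where 39.3% were. The pairs H2AC18 with H2AC19 and H4C14 with H4C15 share nearly all 150-base windows but enter the 13 as separate genes. Of the 18, 7 passed the filter only through NC and 1, H4C11, only through shCtrl, so they had to differ, and the counts are descriptions. By the log2(FPKM + 1) fit, the 5 largest falls were in H2AC19, H2AC18, H2AC6, H2BC4 and H2BC5, which were 69.3-fold, 59.3-fold, 40.5-fold, 21.97-fold and 12.2-fold higher in mean FPKM in NC. Their log2 fold changes were -5.05 ± 0.13 (SE), -4.86 ± 0.13, -3.83 ± 0.13, -2.84 ± 0.26 and -2.71 ± 0.15, all called by limma. H2AC6 and H2BC4 passed the filter only through NC, so their calls are descriptions. The gene called higher in 92.1 was H4C11, at 0.97 ± 0.13, and its call is likewise a description. H2BC12 differed far less, by 2.17-fold (log2 fold change -1.12 ± 0.21, adjusted p = 0.0043 by limma). The count was 3 of 4 genes tested with at least 1 FPKM required in every library, and 8 when either NC library was left out.

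Most replication-independent histone genes rose in A3B OE. Of 11 such genes 10 were tested in MEL290 and 7 were called higher in A3B OE, where 10.3% of all genes tested were, with 0 lower and a median log2 fold change of 0.78. MACROH2A2, a macroH2A variant, was listed at 0 in both NC libraries and stood at 1.81 and 1.55 FPKM in A3B OE. It is among the 7 called, but it passed the filter only through A3B OE and had to differ. H2AZ2, which encodes an H2A.Z, stood at 60.7 and 62.8 FPKM in NC and 118 and 117 in A3B OE, a 1.90-fold rise (log2 fold change 0.92 ± 0.07, adjusted p = 0.0018 by limma). In 92.1, 9 of these genes were tested and limma called 0, with 0 at an unadjusted p under 0.05. Within MEL290 the called clustered H2A genes H2AC18, H2AC19 and H2AC6 and the called variant H2AZ2 thus changed in opposite directions.

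Most of the factors that make histone mRNA were not called. Of 15 transcription and 3′ end processing factors tested in MEL290, 3 were called higher, where 10.3% of all genes tested were, and 0 lower. Their median log2 fold change was 0.28. At an unadjusted p under 0.05 by limma, 6 of the 15 passed, where 3848 of all 11611 genes did. POU2F1, the octamer-binding factor, stood at 1.97 and 2.25 FPKM in NC and 3.40 and 3.63 in A3B OE (log2 fold change 0.54 ± 0.14, adjusted p = 0.0485 by limma). ERI1, an exonuclease that trims the end of histone mRNA, had a log2 fold change of 0.47 ± 0.12, with an adjusted p of 0.0413 by limma. SLBP, which binds the stem-loop, stood at 29.2 and 30.4 FPKM in NC and 39.5 and 35.9 in A3B OE and was not called (adjusted p = 0.0539 by limma). NPAT, the coactivator of histone gene transcription, had 4.65 and 5.95 FPKM in NC and 4.44 and 4.68 in A3B OE, with an adjusted p of 0.480 by limma. In 92.1, limma called 0 of the 15, with 0 at an unadjusted p under 0.05, SLBP at 0.00 ± 0.14 and NPAT at 0.22 ± 0.20 on the log2 fold change scale.

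Many S phase genes and some histone chaperones rose in A3B OE. These lists share NASP and CHAF1B, both called higher, and SLBP and CASP8AP2 are in both the S phase and the processing list. Of 21 chaperone and supply genes tested in MEL290, 10 were called higher and 0 lower, with a median log2 fold change of 0.33. Of all genes tested there, 10.3% were called higher and 7.49% lower. The largest rises were in ASF1B, which hands H3 and H4 to the replication fork, at 8.11 and 8.24 FPKM in NC and 20.2 in both A3B OE libraries, and in HJURP, the chaperone of CENPA, at 9.67 and 8.43 FPKM in NC and 21.4 and 18.2 in A3B OE. Of 42 S phase genes tested, 29 were called higher and 0 lower, with a median log2 fold change of 0.62, and RRM2, a ribonucleotide reductase subunit, rose 2.11-fold (adjusted p = 0.0037 by limma). GMNN, which limits replication licensing, rose 2.12-fold (adjusted p = 0.0072 by limma). The clustered histone genes, whose mRNA is made in S phase, thus had lower values in the libraries in which these S phase genes had higher ones, and their part in the fall was not tested. For shCtrl against NC, 34 of 43 S phase genes were called higher in 92.1, where 39.3% of all genes tested were, and 1 lower. In 92.1, shA3B against shCtrl, limma called 0 of 43 S phase and 0 of 21 chaperone genes, with 1 of each list at an unadjusted p under 0.05.

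Neighbours of the histone genes on chromosome 6 were called in A3B OE about as often as all genes tested. Between the first and last clustered histone gene there, 19 other genes were in the files, and of 13 tested in MEL290 0 were called lower and 1 higher, with a median log2 fold change of 0.12. Of all genes tested, 7.49% were called lower and 10.3% higher, so counts this small do not set the neighbours apart. The gene called was BTN3A1, a butyrophilin, at 0.61 ± 0.14 with an adjusted p of 0.0311 by limma. In shA3B, limma called 0 of 12 tested, with 1 at an unadjusted p under 0.05. For shCtrl against NC, 9 of 13 were called higher in 92.1 and 1, HFE, lower, where 39.3% and 33.7% of all genes tested were. HFE, at -3.90 ± 0.12 on the log2 fold change scale, was listed at 0 in shCtrl. It thus passed the filter only through NC and had to differ.

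**Figure D5:**
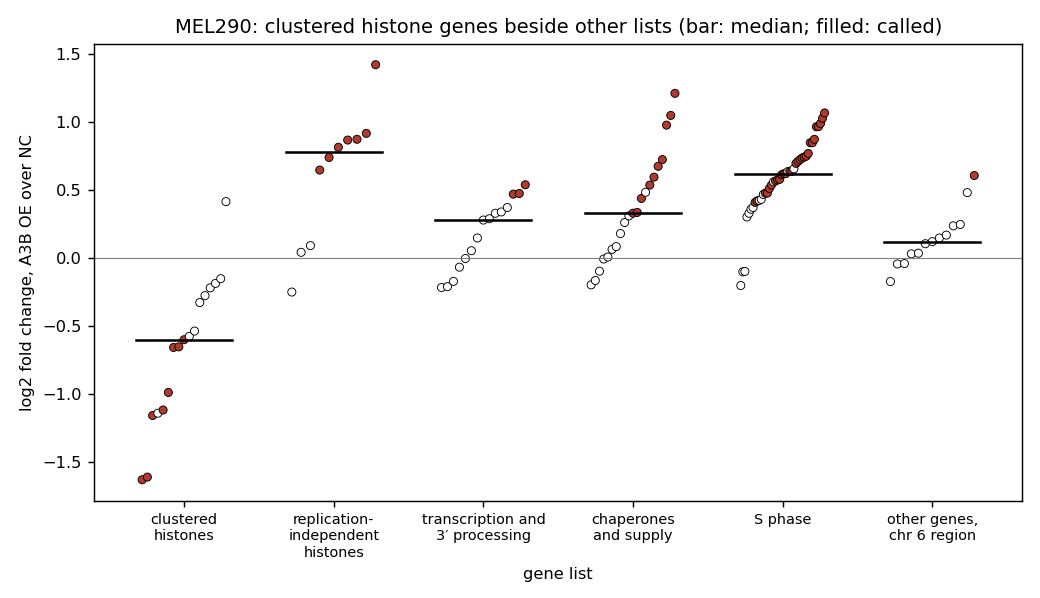
Each point is the log2 fold change of a gene in A3B OE over NC (MEL290), by gene list, with bars at the medians and filled points where the adjusted p was under 0.05. The clustered histone genes (median -0.60) lie below 0 but for 1 of 17, while the replication-independent histones (0.78), the chaperones (0.33) and the S phase genes (0.62) lie mostly above.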

How the data were processed

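RNA of 8 libraries was analysed, 2 each of shCtrl and shA3B in 92.1 and of NC and A3B OE in MEL290. Per the labels and the methods, the libraries were made with a NEBNext Ultra kit, which does not mark strand, and the authors aligned 150-base paired reads to GRCh38 with STAR and computed FPKM with Cufflinks. The methods name Ensembl release 75, but the symbols are newer. The deposited FPKM values are normalized for length and depth, so no count test was used. Files were used 1 per library, and the depth is only roughly known.

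Values were transformed as log2(FPKM + 1), genes at 1 FPKM or more in at least 2 of the libraries fitted were kept, and limma 3.58.1 (R 4.3.3, with a variance trend) was run over all genes with Benjamini-Hochberg adjustment at 0.05. The test was checked on simulated data. Fold changes on this scale understate low genes. All 66 genes matched GENCODE 44, which gave coordinates and transcripts, and promoters came from RefSeq. The stem-loop search first required a loop of TTTC and was widened to TTTN after seeing the data. The members and gene lists were chosen with earlier results of these data known. The S phase list is that of Seurat 5.3.0.

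The genes named were the 2 with the highest mean FPKM per class, every gene called in a comparison (or the 5 largest rises and falls where more than 10 were called), the 2 with the largest gap between replicates among those averaging at least 4 FPKM, at most 4 called genes per list, SLBP, NPAT and A3B. H2AC12, H2AC15, H2AC20, H2BC7, H2BC8, H2BC11, H3-3A, H3-3B, H3C14, H3C15, H4C12, H4C15 and HFE were named after their values were seen. CASP8AP2, CHAF1B and NASP were named as genes shared by lists. Alternatives were a pseudocount of 0.1, other filters, upper quartile scaling, quantile normalization, no variance trend, 1 fit over all libraries, a block for replicate number, removal of GC and length trends, and each library left out. Protein sequences were not used here, and 1 gene of the replication-independent list is not reported here.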

Additional observations from a re-analysis of the deposited data

Results flagged for a closer look

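Of the 20 clustered histone genes tested in the fit over all 8 libraries, 4 were called. The value tested was the log2 fold change of A3B OE over NC less that of shA3B over shCtrl. A3B was raised in MEL290 and lowered in 92.1, so the same response to A3B in both lines would also give a difference. H2AC18 and H2AC19 were also near 1 FPKM or below in all 92.1 libraries. The difference was -1.42 for H2AC19 and -1.34 for H2AC18, which share nearly all 150-base windows and count as a single measurement. It was -0.99 for H2BC5 and -0.99 for H2AC13, a gene with 1.35 FPKM at most. H2AC13 passed the filter only through groups in which a high value lowers the difference, so its call is a description. H2AC19 lost its call in 1 of 15 alternatives, H2AC18 in 4 of 15, H2AC13 in 8 of 13 and H2BC5 in 11 of 15, and all 4 kept their direction. No group had enough libraries to look for a library standing apart.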

How the results depend on the processing

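In 92.1, 0 clustered histone genes were called in every alternative, although the median log2 fold change of those tested moved from -0.25 to 0.10 with all 8 libraries in 1 fit and to -0.06 with at least 1 FPKM in every library, was about 0 with no filter, and ran from -0.51 without shCtrl replicate 1 to 0.0052 without shA3B replicate 2. In MEL290 the count of 8 was 6 to 8 in the alternatives that kept all 4 libraries and 4 to 10 when a library was left out, the 4 being without A3B OE replicate 2. For no alternative in this text is the share of all genes called given. A change in these counts thus cannot be told from a change over all genes. With no filter on low values the median in MEL290 went from -0.60 to -0.21. Without H2BC12 the summed FPKM of A3B OE less NC went from -175 to -125, and that of shA3B less shCtrl from -8.48 to -0.36. For shCtrl against NC, the count of 14 went to 3 with at least 1 FPKM in every library and to 8 to 13 when a library was left out. There the median of -1.75 became -2.77 with a pseudocount of 0.1, -0.32 with no filter, -0.94 with at least 1 FPKM in every library and -1.46 with all 8 libraries in 1 fit, and -1.95 to -1.02 when a library was left out. For the difference between the lines, the count of 4 went to 2 with a pseudocount of 0.1, to 0 with at least 1 FPKM in every library (only 3 genes were tested) and to 0 to 3 when a library was left out.

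With a block for replicate number, the count was 0 in 92.1, 6 in MEL290, 15 for shCtrl against NC and 2 for the difference between the lines. The correlation of replicate differences between groups was 0.19 in 92.1, -0.03 in MEL290 and 0.03 between the controls over 2 pairs, so the numbers were not taken to pair libraries.

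Of the genes named, 5 changed sign when 1 library was left out, none of them called. Their log2 fold changes then ran, in 92.1, from -0.56 to 0.033 for H2BC12 (0.033 without shCtrl replicate 1), from -0.24 to 0.0052 for H2BC5 (0.0052 without shA3B replicate 2), from -0.13 to 0.41 for H3C6 (-0.13 without shA3B replicate 1) and from -0.53 to 0.81 for H4C8 (-0.53 without shCtrl replicate 2), and in MEL290 from -0.38 to 0.073 for H4C14 (0.073 without NC replicate 2). Over all alternatives for the named genes, 515 values kept direction and call, 46 lost the call and 14 gained it. Where a fit left a group with 1 library, that library was assumed to vary like the others. Causes were not tested. At 1 fragment per 0.104 to 0.190 FPKM, few fragments stand behind values under 1 FPKM.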
